A study of Homo sapiens with 6 samples.

Results

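The genes described here are 10 markers of epithelial and mesenchymal cell state, picked by symbol from the 29804 gene symbols counted in 22Rv1 cells. Mesenchymal structure and adhesion are represented by VIM, FN1 and CDH2, the repressors of the epithelial state by ZEB1, ZEB2 and SNAI2, epithelial adhesion by CDH1 and EPCAM, and epithelial regulators by ESRP1 and GRHL2. 22Rv1 is an established human prostate carcinoma epithelial line, and all 6 libraries carry the genotype label WT and were grown in RPMI with 10% serum. The WT group was untreated and taken at week 0, the AM group was cultured for 6 weeks without phleomycin, and the 6WP group was cultured for the same 6 weeks with 1 µg/ml of phleomycin, an agent that breaks DNA, given daily on week days. Each group has 2 libraries, which the labels call biological replicates of this single line, so p-values measure the spread between those cultures only. The question asked of these genes was whether the change of VIM came together with changes of other mesenchymal or of epithelial genes.

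Epithelial cells are held together by E-cadherin (CDH1) junctions and by EPCAM, and they carry keratin filaments. In an epithelial to mesenchymal transition, repressors of the ZEB, SNAI and TWIST families shut off CDH1 and its partners, while vimentin (VIM), N-cadherin (CDH2) and fibronectin (FN1) rise. GRHL2 and the splicing factor ESRP1 hold the epithelial program in place, and in prostate carcinoma such a transition is studied for its link with invasion.

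Libraries held between 21222201 and 35311945 counts. Levels are in CPM, counts scaled to the TMM-adjusted library size, and 3 counts, the limit that a count of 0 allows, equalled 0.0883 to 0.138 CPM, a limit that covers counting error only. Calls are from edgeR's quasi-likelihood test on 14672 genes, two-sided, with Benjamini-Hochberg adjusted p-values under 0.05. The 6WP libraries differed most from each other, with a median SD of 0.196 in log2 CPM over genes against 0.0854 in WT and 0.0911 in AM. All 8 prostate luminal markers were detected in every library, with a summed level of 2545 and 2692 CPM in WT, 1588 and 1930 CPM in AM, and 1980 and 2799 CPM in 6WP. The summed basal markers (4 genes) stayed between 0.0919 and 0.589 CPM, the endothelial markers (5 genes) at 0.138 CPM or less, and the leukocyte markers (5 genes) between 2.43 and 3.70 CPM. The 9 fibroblast markers summed to 21.03 and 17.1 CPM in WT, 3.83 and 2.27 CPM in AM, and 5.57 and 3.56 CPM in 6WP, and LUM and DCN carried most of the drop. In bulk RNA, fewer cells of a type and less RNA per cell cannot be told apart.

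VIM encodes vimentin, the intermediate filament of mesenchymal cells, and was the member that moved most. It lies on chromosome 10 at 17228241 to 17237593 (GRCh38, plus strand). Counts of VIM were 1272 and 1247 in WT, 472 and 747 in AM, and 2448 and 2498 in 6WP, which gave 56.8 and 57.3 CPM in WT, 20.3 and 22.0 CPM in AM, and 88.5 and 88.0 CPM in 6WP. The 3 groups did not overlap, with AM lowest and 6WP highest. VIM fell in AM against WT by 1.43 on the log2 scale (95% interval -1.68 to -1.18, adjusted p = 0.00157), to 0.371 of the WT level, and it ranked 8 among all genes tested by p-value. VIM was 4.17-fold higher in 6WP than in AM (log2 fold change 2.06, interval 1.80 to 2.31, adjusted p = 0.000199). The gain of 6WP over WT was smaller, 1.55-fold (log2 fold change 0.63, interval 0.39 to 0.87, adjusted p = 0.0270). That last call was lost when only WT and 6WP were fitted (adjusted p = 0.0914) and when either WT or either AM library was left out. Over the fits that left out 1 library, the log2 fold change stayed between 0.61 and 0.63. The comparisons of AM with WT and of 6WP with AM share the AM libraries, so their opposite directions are not independent.

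**Figure D1:**
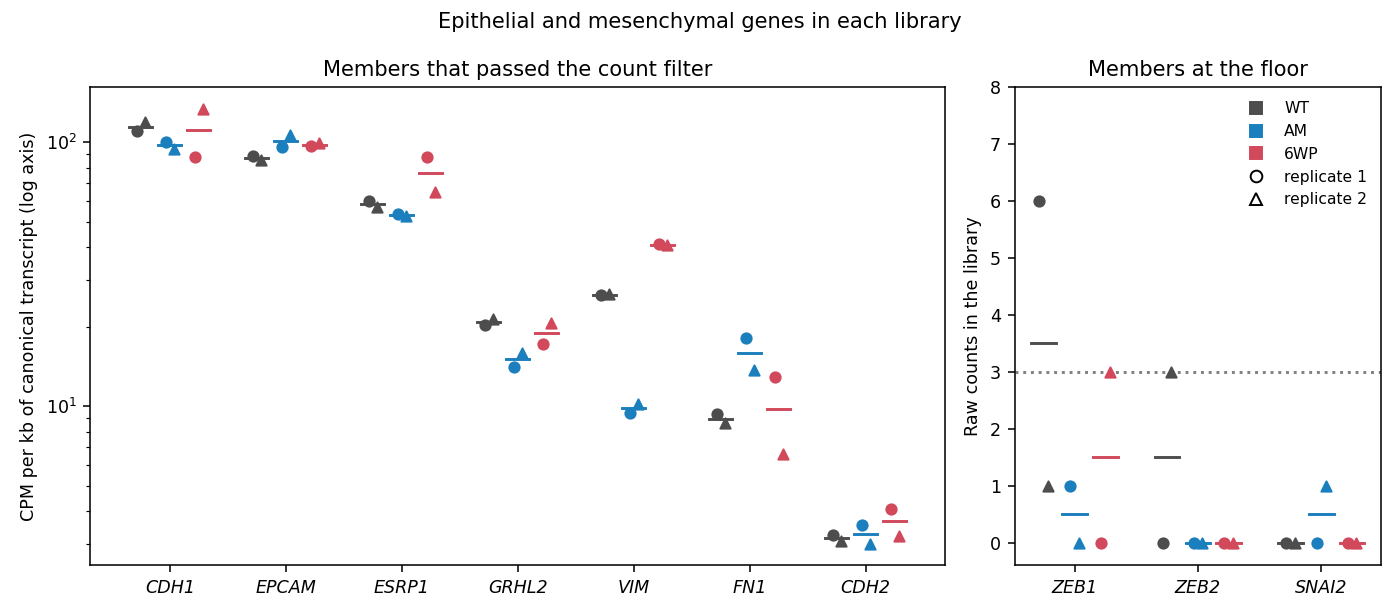
Level of each of the 10 genes in every library, by group, with each point 1 library. The 7 tested genes are in CPM per kb of canonical transcript (log axis), and ZEB1, ZEB2 and SNAI2 in raw counts. The VIM points sit at 9.43 and 10.2 CPM per kb in AM, below WT and 6WP. CDH1 stays between 88.4 and 134 CPM per kb in all 6 libraries, and ZEB1, ZEB2 and SNAI2 lie near the floor.

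VIM-AS1, an antisense RNA that starts within VIM on the minus strand (chromosome 10, 17214239 to 17230018), was examined because 24.6% of the VIM exon bases overlap other genes, and because the strand setting of the counting is not given in the sources used here. Its counts were 128 and 108 in WT, 44 and 77 in AM, and 202 and 126 in 6WP. VIM-AS1 fell in AM against WT (log2 fold change -1.35, SE 0.29, adjusted p = 0.0204) and was higher in 6WP than in AM (1.48, SE 0.29, adjusted p = 0.0127), whereas the difference of 6WP from WT was 0.14 (interval -0.49 to 0.76, adjusted p = 0.809). There were 9.94 and 11.5 VIM counts per VIM-AS1 count in WT, 10.7 and 9.70 in AM, and 12.1 and 19.8 in 6WP. With reads of both genes summed, the log2 fold changes were -1.42 in AM against WT, 2.02 in 6WP against AM and 0.59 in 6WP against WT, and all of them passed the test (largest adjusted p = 0.0322). Without strand, reads from the shared stretch cannot be assigned to one or the other gene.

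The promoters of VIM and FN1 are shown because these mesenchymal genes followed different courses over the 3 groups. Each is the stretch of 250 bases before the RefSeq start on GRCh38, 5′ to 3′ on the strand of the gene, VIM at chr10:17227991-17228240 (plus strand) and FN1 at chr2:215436069-215436318 (minus strand). Capitals mark matches to a GC box (GGGCGG or CCGCCC) or to a cAMP response element (TGACGTCA, its own reverse complement).
VIM: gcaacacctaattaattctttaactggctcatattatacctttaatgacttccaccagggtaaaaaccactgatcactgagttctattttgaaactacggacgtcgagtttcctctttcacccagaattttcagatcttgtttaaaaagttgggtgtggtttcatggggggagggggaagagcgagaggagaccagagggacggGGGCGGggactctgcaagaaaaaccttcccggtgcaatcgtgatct
FN1: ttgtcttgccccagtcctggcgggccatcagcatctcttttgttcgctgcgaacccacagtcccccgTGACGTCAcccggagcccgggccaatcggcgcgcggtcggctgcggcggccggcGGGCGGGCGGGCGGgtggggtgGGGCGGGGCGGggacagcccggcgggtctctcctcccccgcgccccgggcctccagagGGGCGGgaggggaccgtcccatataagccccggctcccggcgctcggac
In the VIM stretch, 1 GC box begins 46 bases before the start. The FN1 stretch holds 6 GC boxes, several of which overlap, and 1 cAMP response element that begins 183 bases before the start. The E-box CACCTG or CAGGTG, the letters that ZEB and SNAI proteins bind, had 0 matches in either stretch. Among 35116 RefSeq promoter stretches of this length, searched on both strands, 17.5% held that E-box, 42.6% a GC box and 1.65% the cAMP response element. A match is only a match of letters. Of the 10 genes, 5 had a promoter entry.

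FN1, the fibronectin matrix protein (chromosome 2, 215360440 to 215436073, minus strand), did not follow VIM. Its counts were 1753 and 1574 in WT, 3533 and 3916 in AM, and 3008 and 1570 in 6WP, or 78.3 and 72.3 CPM, 152 and 115 CPM, and 109 and 55.3 CPM. Both AM libraries lay above every other library, and the 6WP libraries fell on either side of WT. The log2 fold change of AM over WT was 0.83 (interval 0.18 to 1.48) and did not pass the test (adjusted p = 0.0775), nor did 6WP against AM (-0.70, interval -1.35 to -0.06, adjusted p = 0.109) or 6WP against WT (0.12, interval -0.52 to 0.77, adjusted p = 0.836). The values of 6WP depended on which 6WP library was kept. Without 6WP replicate 1, the log2 fold change of FN1 in 6WP against WT was -0.46, and without 6WP replicate 2 it was 0.50. Against AM, the log2 fold change of 6WP was -1.27 without 6WP replicate 1 and -0.33 without 6WP replicate 2. With all libraries, 6WP against AM passed the test with DESeq2 (adjusted p = 0.0384). The rise in AM against WT passed the test with DESeq2 (adjusted p = 0.0183) and with WT and AM fitted alone in edgeR (adjusted p = 1.60e-05). Per VIM count and per kilobase of transcript, FN1 stood at 0.354 and 0.324 in WT, 1.92 and 1.35 in AM, and 0.315 and 0.161 in 6WP.

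CDH2 encodes N-cadherin, the cadherin of neural and mesenchymal cells, and lies on chromosome 18 at 27932879 to 28177946 (minus strand). Its levels were 13.1 and 12.4 CPM in WT, 14.3 and 12.1 CPM in AM, and 16.5 and 13.0 CPM in 6WP, with 269 to 455 counts a library. The groups overlapped in every comparison. None of the differences passed edgeR's test, with log2 fold changes of 0.21 in 6WP against WT (interval -0.19 to 0.61, adjusted p = 0.517), 0.16 in 6WP against AM (interval -0.24 to 0.55, adjusted p = 0.536) and 0.05 in AM against WT (interval -0.35 to 0.45, adjusted p = 0.860). The intervals leave room for a rise of up to 0.61, close to the estimate for VIM in 6WP against WT.

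ZEB1, ZEB2 and SNAI2 were at or near 0. ZEB1, a zinc finger repressor of CDH1, had 6 and 1 counts in WT, 1 and 0 in AM, and 0 and 3 in 6WP. ZEB2, its paralog, had 0 and 3 counts in WT and 0 in the other 4 libraries. SNAI2, the repressor also called Slug, had 1 count in a single AM library (AM replicate 2) and 0 elsewhere. None of these passed the filter on low counts, so they were not tested and no fold change is given. Where a count was 0, it allows a level of up to 0.0883 to 0.138 CPM, depending on the library.

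CDH1 was the most abundant of the 10 genes in counts, and none of its differences passed the test. It lies on chromosome 16 at 68737292 to 68835537 (plus strand) and encodes E-cadherin, the calcium-dependent adhesion receptor of epithelia. Its levels were 529 and 575 CPM in WT, 485 and 455 CPM in AM, and 425 and 644 CPM in 6WP, so that the 6WP libraries spanned all the others and AM lay below WT. The log2 fold changes were -0.05 in 6WP against WT (interval -0.47 to 0.37, adjusted p = 0.911), 0.19 in 6WP against AM (interval -0.23 to 0.61, adjusted p = 0.490) and -0.23 in AM against WT (interval -0.65 to 0.19, adjusted p = 0.390). The lower level in AM passed the test with only WT and AM fitted (-0.23, adjusted p = 0.0278) and without either 6WP library.

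EPCAM encodes an adhesion molecule of the surface of epithelial cells (chromosome 2, 47345158 to 47387601, plus strand). It measured 137 and 133 CPM in WT, 149 and 164 CPM in AM, and 150 and 154 CPM in 6WP. Both 6-week groups lay above WT without a call, with log2 fold changes of 0.22 in AM (interval -0.02 to 0.46, adjusted p = 0.176) and 0.17 in 6WP (interval -0.07 to 0.41, adjusted p = 0.378). The difference of AM from WT passed with only those groups fitted (adjusted p = 0.0350) and without 6WP replicate 1 or 2 (adjusted p = 0.0495 and 0.0326). The 6WP libraries lay within the AM range, and that difference was -0.05 (interval -0.29 to 0.19, adjusted p = 0.763).

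ESRP1, the epithelial splicing regulator (chromosome 8, 94641074 to 94707466, plus strand), was higher in 6WP than in AM. It measured 225 and 215 CPM in WT, 202 and 198 CPM in AM, and 332 and 245 CPM in 6WP. The 6WP libraries were the highest but differed from each other by more than WT differed from AM. The log2 fold change of 6WP over AM was 0.53 (SE 0.15, adjusted p = 0.0386), and that of 6WP over WT was 0.39 (interval 0.05 to 0.73, adjusted p = 0.174). The call against AM was lost with only those groups fitted (adjusted p = 0.0964) and without any WT or AM library. AM against WT gave -0.14 (interval -0.48 to 0.20, adjusted p = 0.526).

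GRHL2, a grainyhead family transcription factor that activates CDH1 and other junction genes (chromosome 8, 101492439 to 101669726, plus strand), was lower in AM than in WT. Its levels were 106 and 112 CPM in WT, 74.1 and 83.4 CPM in AM, and 90.0 and 108 CPM in 6WP. The AM libraries lay below all the others. GRHL2 fell in AM by 0.47 on the log2 scale (-0.47, SE 0.13, adjusted p = 0.0414), a call that was lost without any WT or AM library (adjusted p = 0.159 to 0.270). The log2 fold change of 6WP over AM was 0.33 (interval 0.04 to 0.63, adjusted p = 0.0994), and that of 6WP over WT was -0.14 (interval -0.43 to 0.16, adjusted p = 0.568).

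**Figure D2:**
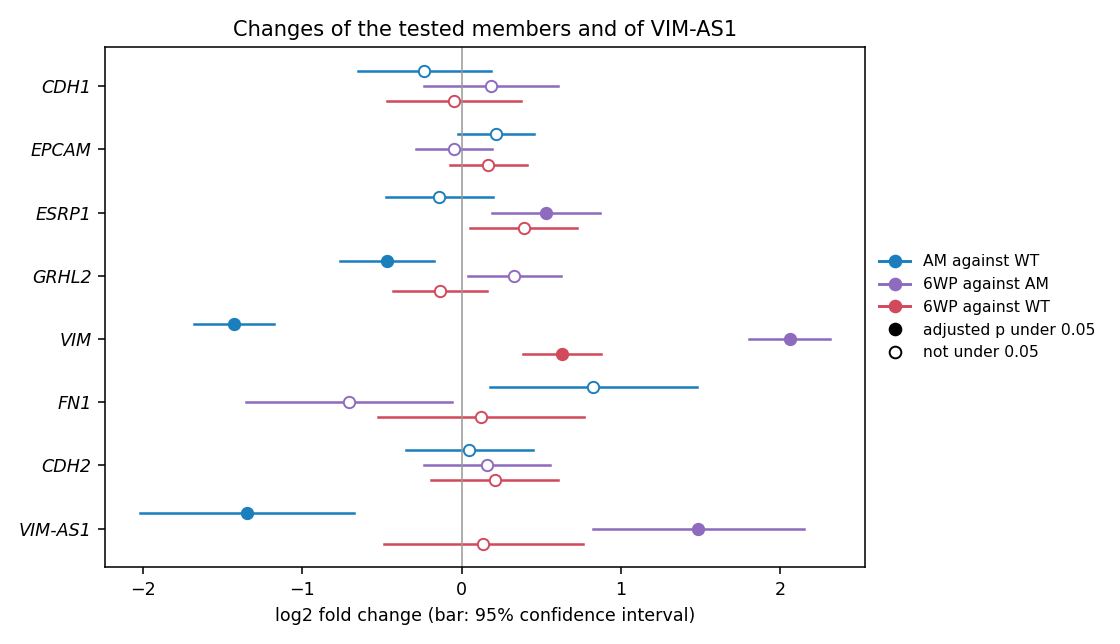
Log2 fold change of the 7 tested genes and of VIM-AS1 in each of the 3 comparisons, with points for edgeR's estimate and bars for the 95% interval. VIM has intervals clear of 0 in all 3 comparisons (-1.43, 2.06 and 0.63), and the intervals of CDH1 and CDH2 include 0 in each.

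In each comparison, VIM was thus joined by at most 1 other member. In 6WP against WT, 1 of the 7 tested genes was called (VIM), while 3.00% of all genes tested were called (1.63% higher and 1.37% lower). In 6WP against AM, 2 of 7 were higher (VIM and ESRP1), where 21.3% of all genes were called (11.7% higher and 9.68% lower). In AM against WT, 2 of 7 were lower (VIM and GRHL2), where 17.7% of all genes were called (7.74% higher and 9.93% lower). In the same order, the tested members had median log2 fold changes of 0.17, 0.19 and -0.14, beside 0.01, 0.05 and -0.002 over all genes tested. The groups did not overlap for 3 of the 7 genes in 6WP against WT, 4 in 6WP against AM and 6 in AM against WT, where 50.7%, 62.3% and 73.8% of all genes tested did not overlap. Without any WT or AM library, VIM was the only member called in the last 2 comparisons and none was called in 6WP against WT, where 1 (VIM) had an unadjusted p under 0.05. The other members called beside VIM were epithelial regulators, and they moved in the direction of VIM.

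Levels per kilobase of the canonical transcript place these genes against each other, and here CDH1, EPCAM and ESRP1 led in every group. In WT, CDH1 stood at 115 ± 6.71 CPM per kb (SD, n = 2), EPCAM at 87.2 ± 2.03, ESRP1 at 58.4 ± 1.96, VIM at 26.5 ± 0.163, GRHL2 at 20.8 ± 0.745, FN1 at 8.97 ± 0.502 and CDH2 at 3.17 ± 0.135. These neighbours did not overlap in WT. In AM, CDH1 (97.7 ± 4.38) and EPCAM (101 ± 7.03) overlapped, as did FN1 (15.9 ± 3.10) and GRHL2 (15.1 ± 1.27), and VIM had moved below both of the latter, to 9.82 ± 0.549. In 6WP, VIM stood at 41.0 ± 0.160, above GRHL2 (18.9 ± 2.48) and FN1 (9.78 ± 4.50) and below ESRP1 (76.5 ± 16.3), and CDH1 (111 ± 32.1) again overlapped EPCAM (98.0 ± 1.77). Measured against the union of all exons of a gene, which is much longer than the canonical transcript for VIM, VIM fell to 11.02 in WT, below GRHL2 at 17.99, so the order of those genes rests on the length used. CDH1 per CDH2 stood at 33.7 and 38.8 in WT, 28.3 and 31.3 in AM, and 21.6 and 41.4 in 6WP, with 6WP spanning the other groups. VIM per CDH1 stood at 0.240 and 0.222 in WT, 0.0936 and 0.108 in AM, and 0.465 and 0.305 in 6WP, and did not overlap between groups.

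Further genes of the mesenchymal program fell with VIM in AM, and few of them differed between 6WP and WT. In AM against WT, 10 of the 28 tested genes of the mesenchymal list (44 genes) were lower and none was called higher, with a median log2 fold change of -0.50. That is 35.7% of those tested, beside 17.7% of all genes called in either direction and 9.93% called lower. By unadjusted p under 0.05, 15 were lower and 0 higher, and DESeq2 called 13 lower and 0 higher. The count of 10 was 2 or 3 without any WT or AM library and 15 without either 6WP library. In 6WP against AM, 7 of 28 were higher (25%) and 0 lower, with a median of 0.35. Of all genes, 11.7% were called higher and 21.3% in either direction. By unadjusted p under 0.05, 10 genes of the list were higher and 0 lower. That count of 7 was 5 without either WT library, 1 without either AM library, 14 without 6WP replicate 1 and 10 without 6WP replicate 2. In 6WP against WT, 1 of 28 was called, TNC, and it was lower (3.57% beside 3.00%, median -0.12).

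ITGA5, the integrin subunit that binds fibronectin, had a course like that of VIM in AM. It measured 25.9 and 28.7 CPM in WT, 7.62 and 8.10 CPM in AM, and 28.5 and 39.4 CPM in 6WP. ITGA5 fell by 1.79 on the log2 scale in AM (SE 0.18, adjusted p = 0.00258) and was 2.11 higher in 6WP than in AM (SE 0.18, adjusted p = 0.00180), and its difference of 6WP from WT was 0.32 (interval -0.08 to 0.71, adjusted p = 0.320). MMP14, a membrane-bound metalloproteinase, went from 2.23 and 2.66 CPM in WT to 1.03 and 1.21 CPM in AM and 2.75 and 2.89 CPM in 6WP. Its log2 fold change was -1.11 in AM against WT (adjusted p = 0.0287) and 1.32 in 6WP against AM (adjusted p = 0.0136). FSTL1, a secreted glycoprotein, and NT5E, the ectoenzyme CD73, fell in AM as well (log2 fold changes of -1.58 and -1.59, adjusted p = 0.00249 and 0.00760). In 6WP they were above AM and had log2 fold changes of -0.64 and -0.70 against WT that did not pass the test (adjusted p = 0.0665 and 0.135). TNC, the matrix protein tenascin C, went from 129 ± 7.99 CPM (SD, n = 2) in WT to 64.9 ± 14.9 CPM in AM and 64.0 ± 2.65 CPM in 6WP. It fell in both 6-week groups, with log2 fold changes of -0.99 in AM (adjusted p = 0.00843) and -1.01 in 6WP (adjusted p = 0.0215) against WT. The call in 6WP was lost without WT replicate 1 or 2 (adjusted p = 0.313 and 0.214). COL1A1, COL3A1, PDGFRB, FAP and THY1 stand in both the mesenchymal list and the fibroblast markers. The summed level of all 9 fibroblast markers fell with VIM in AM but, unlike VIM, did not return in 6WP. LUM and DCN, which are not in the mesenchymal list, carried most of that drop. Of the shared genes, COL1A1 had mean levels of 2.24 CPM in WT, 1.32 CPM in AM and 1.70 CPM in 6WP. In the same order PDGFRB had 0.361, 0.125 and 0.412 CPM, and COL3A1 0.746, 0.795 and 1.26 CPM. FAP and THY1 were near the floor. The part of the fibroblast markers in the VIM values was not tested.

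Of the other transition-linked transcription factors, 8 of 11 were tested. In AM against WT 4 of them were lower, among them PRRX1, KLF8 and TCF4, where 17.7% of all genes were called and 9.93% were lower. In 6WP against AM 2 of 8 were higher (PRRX1 and KLF8), where 21.3% of all genes were called and 11.7% were higher. In 6WP against WT edgeR called 0 of 8 (2 at an unadjusted p under 0.05), and DESeq2 also called 0. PRRX1, a homeobox factor, had 30 and 22 counts in WT, 4 and 10 in AM, and 26 and 39 in 6WP, with log2 fold changes of -2.26 in AM against WT (adjusted p = 0.0157) and 2.24 in 6WP against AM (adjusted p = 0.0135). KLF8, a Krüppel-like factor, had 15 and 8 counts in WT, 1 in each AM library, and 11 and 24 in 6WP, and it passed the same comparisons (adjusted p = 0.0232 and 0.0136). Both were low, at 39 counts or fewer in every library. TCF4, an E-protein whose values were seen before it was named here, fell in AM by 0.47 (-0.47, adjusted p = 0.0368). TWIST1, named here after its values were seen, was present in every library, with 9.06 and 9.19 CPM in WT, 10.3 and 10.7 CPM in AM, and 13.7 and 11.3 CPM in 6WP. The groups did not overlap, with 6WP highest, and none of the differences passed the test, with log2 fold changes of 0.46 in 6WP against WT (interval 0.08 to 0.83, adjusted p = 0.155), 0.25 in 6WP against AM (adjusted p = 0.284) and 0.21 in AM against WT (adjusted p = 0.398). TWIST2 and FOXC2 had 0 counts in every library.

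**Figure D3:**
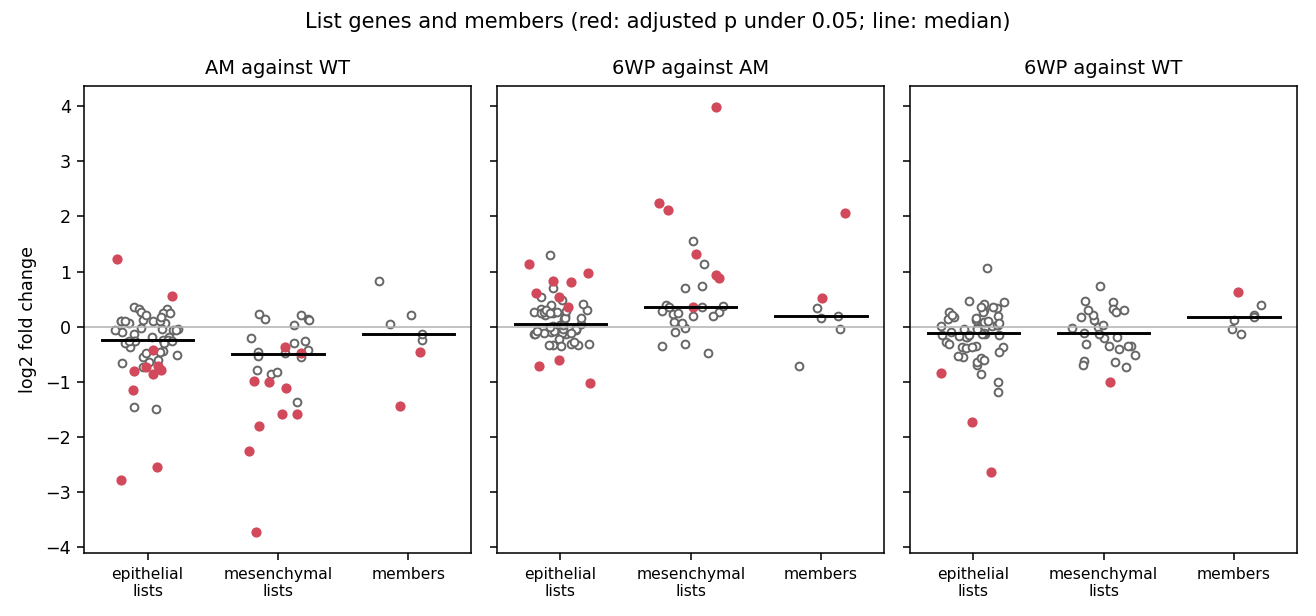
Log2 fold change of each tested gene of the epithelial list, the mesenchymal list and the members in the 3 comparisons. Red points have an adjusted p under 0.05, and lines mark the medians. The mesenchymal list has its lowest median in AM against WT (-0.50), with 10 genes lower of 28 tested, and a median of -0.12 with 1 gene called in 6WP against WT.

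Of the epithelial list, more genes were lower than higher in both 6-week groups against WT. Of its 61 genes 57 were tested. In 6WP against WT 3 were called, all lower (5.26% beside 3.00% of all genes, median log2 fold change -0.12), which were CLDN1, PKP2 and ELF5. By unadjusted p under 0.05, 3 were higher and 15 lower, and DESeq2 called 1 higher and 9 lower. In 6WP against AM 7 were higher and 3 lower (17.5% beside 21.3%, median 0.04). In AM against WT 2 were higher and 9 lower (19.3% beside 17.7%, median -0.24), and by unadjusted p under 0.05, 4 were higher and 20 lower. The count of 11 in AM against WT was 1 or 2 without any WT or AM library and 32 or 33 without either 6WP library. Junction and polarity genes made up 29 of the 57 tested and 7 of the 9 that were lower in AM. Of those 29, 27.6% were called in either direction in AM against WT, beside 17.7% of all genes.

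Among the junction genes, CLDN1, a tight junction claudin, had 53 and 55 counts in WT, 10 in each AM library, and 5 and 17 in 6WP. It was lower in both 6-week groups, with log2 fold changes of -2.77 in AM (SE 0.48, adjusted p = 0.0103) and -2.63 in 6WP (SE 0.47, adjusted p = 0.0312). The call in 6WP was lost with only WT and 6WP fitted (adjusted p = 0.0900) and without any WT or AM library (adjusted p = 0.0914 to 0.315). DSC2, a desmosomal cadherin, was higher in 6WP than in AM (7.88 and 12.5 CPM against 5.60 and 3.77 CPM, log2 fold change 1.13, adjusted p = 0.0260), and WT lay at 7.19 and 8.18 CPM. This DSC2 call was lost in 5 of 12 alternatives, and without 1 library the log2 fold change ranged from 0.74 to 1.44.

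Among keratins and epithelial regulators, KRT19 and ELF5 passed the rule for naming. KRT19, a keratin of simple epithelia, measured 23.3 and 26.5 CPM in WT, 46.7 and 69.2 CPM in AM, and 27.3 and 29.5 CPM in 6WP, with AM above both other groups. It rose in AM (log2 fold change 1.22, SE 0.19, adjusted p = 0.00765) and was lower in 6WP than in AM (-1.03, SE 0.19, adjusted p = 0.0103). ELF5, an ETS factor of secretory epithelia, fell from 21.1 and 21.6 CPM in WT to 3.23 and 4.004 CPM in AM and 6.73 and 6.13 CPM in 6WP. Its log2 fold changes against WT were -2.55 in AM (adjusted p = 0.00157) and -1.73 in 6WP (adjusted p = 0.00493), the latter lost without WT replicate 1 or 2 (adjusted p = 0.137 and 0.113). KRT8 and KRT18, the paired keratins of luminal cells, were named after their values were seen. KRT18 stayed between 311 and 353 CPM in all libraries, and KRT8 fell in AM from 250 and 274 CPM to 140 and 165 CPM (log2 fold change -0.78, adjusted p = 0.0132), with 227 and 178 CPM in 6WP.

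TGF-beta is the best known inducer of the transition, and a list of TGF-beta and BMP signalling genes was split in direction. In AM against WT, 5 of the 18 tested genes of that list were higher and 5 lower (17.7% of all genes were called), in 6WP against AM 4 were higher and 2 lower (21.3% of all genes), and in 6WP against WT 1 was higher and 1 lower (3.00% of all genes). TGFB1, the main ligand, rose in AM (158 and 199 CPM in WT, 468 and 550 CPM in AM, log2 fold change 1.52, adjusted p = 0.00692). In 6WP it measured 264 and 421 CPM, which passed neither against WT (0.94, adjusted p = 0.0619) nor against AM (-0.57, adjusted p = 0.0972). TGFBR2, the ligand-binding receptor, measured 3.30 and 3.58 CPM in WT, 1.55 and 1.85 CPM in AM, and 2.89 and 3.67 CPM in 6WP, and it was lower in AM (adjusted p = 0.0330). The target TGFBI, a matrix protein, had 28 and 42 counts in WT, 7 and 13 in AM, and 38 and 48 in 6WP, lower in AM against WT (log2 fold change -2.18, adjusted p = 0.0119) and higher in 6WP against AM (2.13, adjusted p = 0.0105). TGFB3, a further ligand, measured 3.08 and 2.94 CPM in WT, 1.51 and 1.83 CPM in AM, and 3.72 and 3.59 CPM in 6WP (6WP over AM 1.12, adjusted p = 0.0161). This TGFB3 call was lost in 5 of 12 alternatives, and without 1 library the log2 fold change ranged from 1.00 to 1.28. TGFBI, TGFBR2 and TGFB3 were thus low in AM while the ligand TGFB1 was high there. Other genes of the list, named here after their values were seen, lay higher in AM, as TGFB1 did. Their courses differed in 6WP. SMAD7 measured 20.9 and 21.3 CPM in WT, 37.7 and 38.8 CPM in AM, and 33.0 and 30.3 CPM in 6WP. ID3 went from 139 and 142 CPM in WT to 221 and 246 CPM in AM, with 181 and 99.4 CPM in 6WP. TGFBR1 went from 21.3 and 20.7 CPM in WT to 29.0 and 29.9 CPM in AM, with 20.7 and 21.2 CPM in 6WP.

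Other members of the families of VIM and CDH2 were compared with them. Of 12 other intermediate filament genes 7 were tested, and NEFH, the heavy neurofilament subunit, was higher in AM (17.4 and 21.4 CPM in WT, 39.5 and 40.5 CPM in AM, log2 fold change 1.04, adjusted p = 0.00488) and in 6WP (31.2 and 29.6 CPM, 0.65 against WT, adjusted p = 0.0486). Of 15 other classical cadherins 8 were tested. In AM against WT 1 was higher and 2 lower (37.5% beside 17.7% of all genes). In 6WP against AM 2 were higher and 3 lower (62.5% beside 21.3%), and in 6WP against WT 1 was higher (12.5% beside 3.00%). CDH6, a type II cadherin of kidney and developing epithelia, measured 72.6 and 68.4 CPM in WT, 24.6 and 30.4 CPM in AM, and 75.0 and 86.9 CPM in 6WP. CDH6 fell in AM by 1.35 on the log2 scale (SE 0.14, adjusted p = 0.00268) and was 1.55 higher in 6WP than in AM (SE 0.14, adjusted p = 0.00202). These are the directions of VIM in the same comparisons. CDH10 had 26 and 25 counts in WT, 5 and 6 in AM, and 46 and 24 in 6WP, also lower in AM (adjusted p = 0.0154). CDH15, the muscle cadherin, went the other way, with 13 and 14 counts in WT, 56 and 82 in AM, and 6 and 7 in 6WP (log2 fold change 1.97 in AM against WT, adjusted p = 0.00765, and -3.35 in 6WP against AM, adjusted p = 0.00203). CDH12 was lower in 6WP than in AM (5.71 and 4.05 CPM against 11.6 and 10.2 CPM, adjusted p = 0.0130).

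The genes whose profile lay nearest to a member were sought among 12036 genes by the root mean square difference of centred log2 CPM over the 6 libraries. Nearest to VIM were the long non-coding RNA LINC00478 (0.108 log2 units), DMKN (0.160), RP11-547I7.2 (0.162), CRABP2 (0.198) and MARK1 (0.198). LINC00478 had mean levels of 8.95 CPM in WT, 3.56 CPM in AM and 13.9 CPM in 6WP, and CRABP2, a retinoic acid binding protein, 15.7, 5.18 and 18.3 CPM. None of these is a gene of the mesenchymal or epithelial lists. CDH1 had closer neighbours, with GLG1, CHD9, PRTG, DOCK5 and RAPGEFL1 within 0.0220 to 0.0331 log2 units, and CDH2 had HLCS, CYP2R1, FAM204A, TRAPPC13 and B2M within 0.0493 to 0.0542. These distances rest on 6 libraries in 3 groups and are a description.

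**Figure D4:**
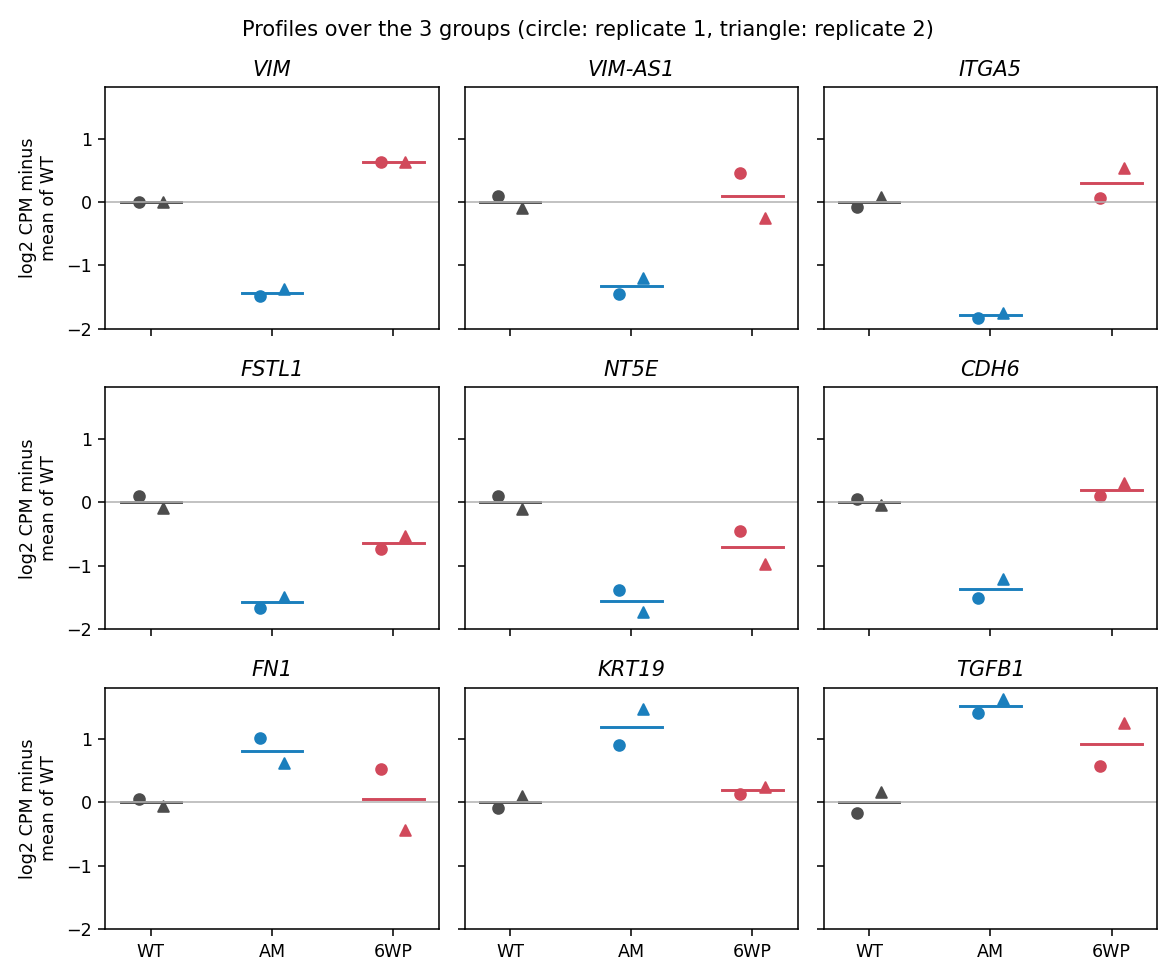
Log2 CPM minus the mean of WT in the 6 libraries (WT, AM and 6WP replicates) for VIM, VIM-AS1, ITGA5, FSTL1, NT5E, CDH6, FN1, KRT19 and TGFB1. The VIM panel dips in both AM libraries and peaks in both 6WP libraries, whereas FN1, KRT19 and TGFB1 are highest in AM.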

How the data were processed

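Total RNA of 6 22Rv1 libraries was made into stranded libraries and read as single 100 base ends. The submitters' processing notes name STAR 2.5.3a, featureCounts 1.5.3, StringTie 1.3.3, edgeR 3.22.3, R 3.5.0 and hg38. The strand setting, annotation and filter are not given in the sources used here. The deposited table holds raw counts, not normalized by the authors, for 29804 symbols, and 0 columns were left out.

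Here genes were filtered by filterByExpr over the 3 groups (14672 kept), scaled by TMM and fitted with edgeR 4.0.16 (quasi-likelihood test, R 4.3.3, no covariates) to all 6 libraries, with Benjamini-Hochberg adjusted p-values over all genes tested and a threshold of 0.05. DESeq2 1.42.0 and limma 3.58.1 served as alternatives or helpers. With 2 libraries in each group an exact permutation test reaches 0.333 at the lowest and was not used. Replicate numbers did not pair the groups (correlations of deviations -0.0206 to 0.0873), so no block was fitted in the reported test.

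The 10 genes and the context lists, compiled from general knowledge, were chosen with earlier results of these data known. Context genes were named where adjusted p was under 0.05 with an absolute log2 fold change of at least 1, at most 4 per list and comparison, and some genes that met this rule are not reported here. VIM-AS1 was always named, and so were the 5 nearest profiles of VIM, CDH1 and CDH2 at a mean log2 CPM of at least 1. Alternatives were RLE or library size scaling, no filter, DESeq2, fits of only the groups compared, a replicate block, leaving out each library and, added after seeing the data, exon union lengths. Positions are from GENCODE on GRCh38. The code was tested on simulated data.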

Additional observations from a re-analysis of the deposited data

How the results depend on the processing

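VIM kept its direction in all 13 alternatives of each comparison, and its calls in AM against WT and in 6WP against AM passed in all of them (largest adjusted p = 0.0428 and 0.0213). Without a filter, 8 genes of the epithelial list and 2 of the mesenchymal list were called in 6WP against WT, and with DESeq2 10 and 2, where the reported fit called 3 and 1. With only the groups compared, edgeR called 0 members in 6WP against WT (1 at an unadjusted p under 0.05), 1 in 6WP against AM and 5 in AM against WT. The epithelial genes called in these fits were 1, 2 and 33. DESeq2 was fitted to all 6 libraries only, and there it called 1 member in 6WP against WT. Leaving out 1 library moved the members called between 0 and 5 in 6WP against WT, 1 and 5 in 6WP against AM, and 1 and 5 in AM against WT. For the epithelial list these ranges were 0 to 21, 0 to 24 and 1 to 33, and for the mesenchymal list 0 to 6, 1 to 14 and 2 to 15. Members called in 6WP against WT were 0 without any WT or AM library, 2 without 6WP replicate 1 and 5 without 6WP replicate 2. Leaving out 1 library leaves fewer degrees of freedom, and the lone library of a group is taken to vary like the others.

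Of 686 values of single genes over the alternatives, 547 kept direction and side of the threshold, 108 lost a call, 22 gained one and 9 turned direction. Of the 108, all but 6 came from leaving out a WT or AM library, which cost NT5E, PRRX1, KLF8, MMP14, TGFB1, TGFBI and CLDN1, among others, their call in AM against WT. CDH2 in AM against WT was -0.0089 with library size scaling. Without 1 library, log2 fold changes ranged from -0.40 to 0.21 for CDH1 in 6WP against WT, -0.18 to 0.45 for CDH1 in 6WP against AM, -0.080 to 0.15 for CDH2 in AM against WT, -0.023 to 0.29 for CDH2 in 6WP against AM, -0.12 to 0.027 for EPCAM in 6WP against AM, -0.46 to 0.50 for FN1 in 6WP against WT and -0.28 to 0.43 for VIM-AS1 in 6WP against WT. The causes were not tested.

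The replicate numbers are shared by the groups but did not pair them. With a replicate block, 1, 3 and 3 members were called in 6WP compared with WT, 6WP with AM and AM with WT, with FN1 added as lower in 6WP than AM (-0.75, adjusted p = 0.0318) and higher in AM than WT (0.81, adjusted p = 0.0312). The block called 3, 9 and 13 epithelial genes and 6 and 7 mesenchymal genes in the last 2 comparisons.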
